A study of Aedes albopictus with 6 samples.

Results

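Oocyte patterning in insects depends on mRNAs that are made in the nurse cells, carried into the oocyte and kept silent until they are needed. This account describes the genes for those mRNA regulators in ovarian tissue of Aedes albopictus, the Asian tiger mosquito. Members were all genes with values whose deposited description names oskar, nanos, pumilio, Staufen, bicaudal, egalitarian, exuperantia, cup, Smaug, CUGBP, ataxin-2 homolog, germ cell-less, CCR4-NOT, cytoplasmic polyadenylation or the word maternal. They numbered 47 of the 23529 genes with values. The words bag of marbles, benign gonial, orb and bruno were also searched, and each matched 0 genes, so cystoblast differentiation is not represented.

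Ovaries overexpressing the piRNA Aalpi18529, a small RNA of the class bound by PIWI proteins, were compared with control ovaries in 3 libraries per group. The mimic used for overexpression is named in the series' design text, which also places the ovaries after a blood meal. The strain, the age of the females, the number pooled per library and the content of the control treatment are not stated in the labels. Nothing in the labels says that the libraries came from separate cages or animals, so p-values measure only the spread between these libraries, which may be technical. No measurement of the piRNA was analysed here.

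As background from Drosophila, Oskar protein assembles the germ plasm at the posterior pole of the oocyte. Staufen, Egalitarian and Bicaudal D proteins belong to the machinery that moves and anchors its mRNA. Bruno, the fly relative of the CUGBP Elav-like proteins, and Cup hold oskar mRNA untranslated on the way, while Pumilio, Nanos and Smaug silence other maternal mRNAs. Silencing often works through the poly(A) tail, which the CCR4-NOT complex shortens and CPEB proteins such as fly Orb help to lengthen.

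Libraries held 15719412 to 16465531 estimated counts. Levels are given as CPM, the usual count scale relative to library size, after TMM scaling (trimmed mean of M values), and they are not corrected for transcript length, so values are compared between libraries and not between genes. Together the 47 members took 1.5% to 1.53% of the counts of a library. Germ-line markers (14 genes, among them vasa and aubergine) summed to 5372 to 5447 CPM with overexpression and 5411 to 5721 CPM in controls, and follicle cell markers (24 genes) to 6197 to 6703 CPM with overexpression and 6310 to 6458 CPM in controls, so defining markers of both ovarian cell types were present. Muscle markers (29 genes, troponin, tropomyosin, myophilin and muscle myosin) summed to 1086 to 1117 CPM with overexpression, against 1172 to 1194 CPM in controls, so these sums did not overlap. Fat body markers (19 genes) ran from 156 to 214 CPM with overexpression and from 129 to 160 CPM in controls. Haemocyte names (103 genes, mostly phenoloxidase-activating factors) ran from 654 to 662 CPM with overexpression and from 640 to 685 CPM in controls. Midgut names (120 trypsin and chymotrypsin genes) ran from 143 to 182 CPM with overexpression and from 182 to 194 CPM in controls. Only 14 germ-line, 17 follicle cell, 28 muscle, 5 fat body, 52 haemocyte and 12 midgut genes had enough counts to be tested. None of these was called at the limit used below, and the other marker genes had no test. The part of these cells in the members' values was not tested. In whole ovaries, fewer cells of a type and less RNA per cell cannot be told apart.

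Of the 47 members, 43 passed the filter on low counts and were tested with edgeR's quasi-likelihood test over 15540 genes. None passed a Benjamini-Hochberg adjusted p of 0.05, where 2 of all genes tested did (0.0129%), and the smallest adjusted p among members was 0.935. DESeq2 also called 0 members, against 15 of the 22995 genes to which it gave an adjusted p (0.0652%). At an unadjusted edgeR p under 0.05 there were 3 members (6.98%, 2 higher and 1 lower), close to the 4.92% of all genes tested (2.42% higher and 2.5% lower). In 4 members (9.30%) the groups did not overlap, 2 with overexpression above and 2 with it below, against 10.4% of all genes tested (5.25% above and 5.12% below). The median log2 fold change, overexpression over control, was -0.014 over the members and 0.001 over all genes tested, and the median size of the change was 0.075 over the members and 0.098 over all. Members carried more counts than most genes, with a median of 139 CPM against 21.4 CPM over all genes tested.

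The intervals limit how large a missed difference between these libraries could be. The standard error of the log2 fold change had a median of 0.09 and ran from 0.04 to 0.32. For 39 of the 43 tested members the 95% interval from the edgeR fit lay inside a 1.5-fold change in either direction, and for 42 inside a 2-fold change. These intervals are for each gene alone and are not adjusted for the number of members. They rest on the spread between libraries, which may be technical, so they do not bound a difference between treated and control females.

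**Figure D1:**
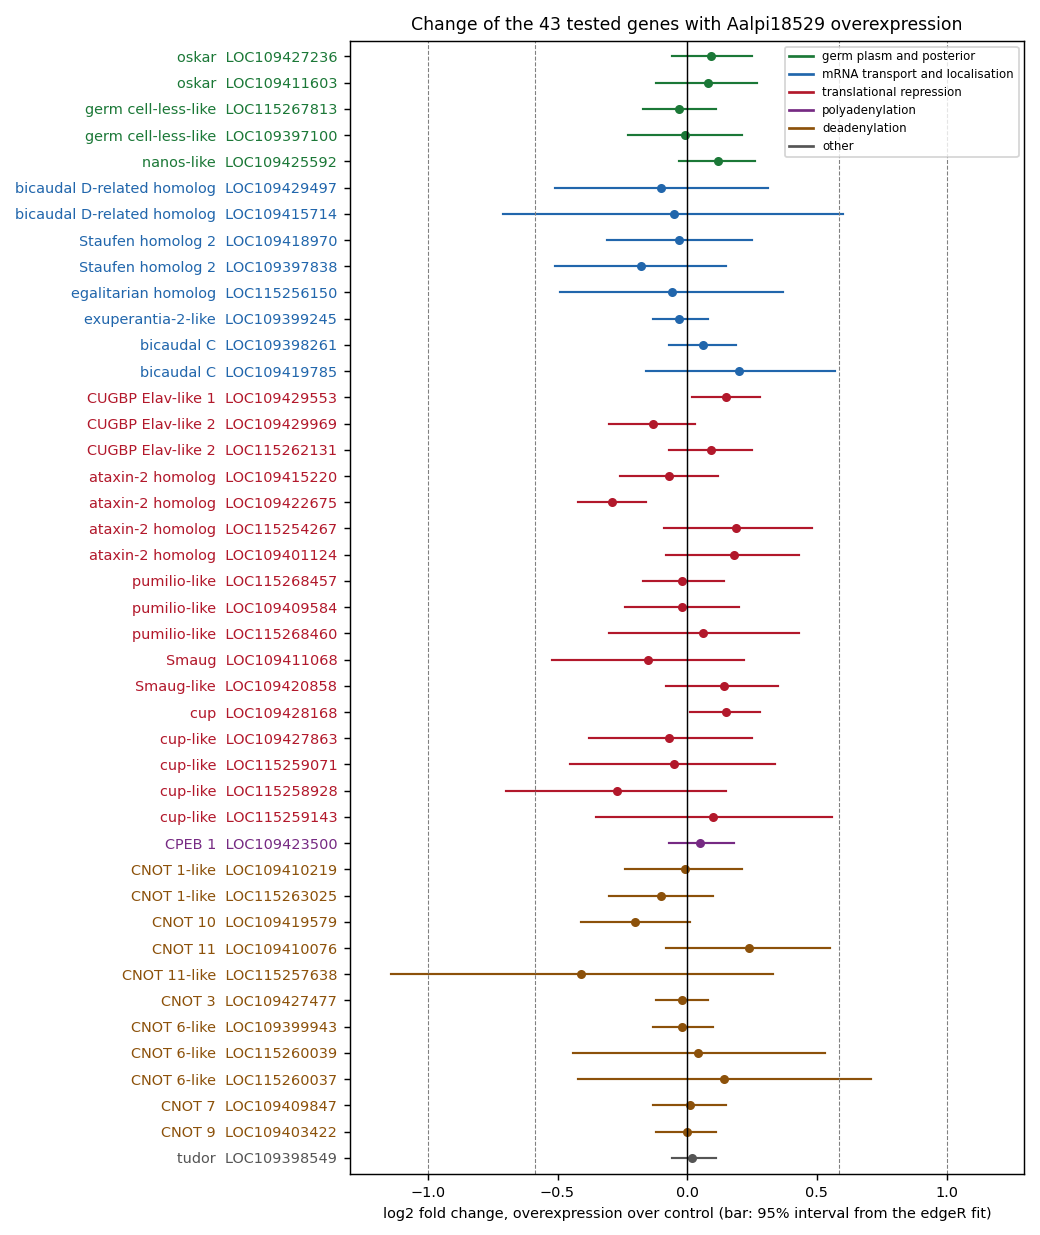
Log2 fold change of each tested member, overexpression over control, with its 95% interval from the edgeR fit, coloured by role. The dashed lines mark 1.5-fold and 2-fold changes. Points lie between -0.41 and 0.24, and 3 intervals leave out 0.

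Germ plasm genes came first among the roles. Oskar, the germ plasm organiser, had a pair of genes on scaffold NW_021837267.1. For oskar and the other shared names below, each gene is a separate deposited gene ID. Whether such IDs are separate genes in the mosquito or repeats in the assembly was not tested. LOC109427236 (positions 36199079 to 36219179) had 2081, 2071 and 1800 CPM in overexpression libraries 1, 2 and 3, against 1992, 1807 and 1779 CPM in controls 1, 2 and 3. LOC109411603 (positions 38743138 to 38775831) had 1087, 915 and 990.3 CPM with overexpression, against 992, 837 and 1011 CPM in controls. In both genes the groups overlapped. The log2 fold changes were 0.09 ± 0.07 (SE) for LOC109427236 and 0.08 ± 0.09 (SE) for LOC109411603, with edgeR adjusted p of 0.963 and 0.971. Both intervals, -0.06 to 0.25 and -0.12 to 0.27, lie inside a 1.5-fold change.

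Nanos, which in the fly acts with Pumilio against posterior translation of hunchback mRNA, was read from 1 gene with whole-number estimates. LOC109425592 (NW_021837045.1, positions 115630419 to 115646565, described as nanos-like) had 88.4, 86.8 and 95.7 CPM with overexpression, against 83.2, 81.1 and 85.6 CPM in controls. All overexpression libraries exceeded every control, by a small margin at the nearest pair. The log2 fold change of 0.12 ± 0.06 (SE) had an interval of -0.03 to 0.26 and an edgeR adjusted p of 0.963.

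Germ cell-less, a fly maternal gene needed to set up the pole cells, had 2 genes on NW_021838465.1. LOC115267813 averaged 109 ± 1.91 CPM with overexpression and 111 ± 5.91 CPM in controls (SD, n = 3 each, as for all means here). LOC109397100 averaged 76.1 ± 8.41 CPM with overexpression and 76.4 ± 5.74 CPM in controls. Their log2 fold changes of -0.03 and -0.01 were within their SEs of 0.06 and 0.10. The 5 genes placed in the germ plasm role by description (oskar, nanos and germ cell-less) were also summed. They gave 3433, 3257 and 3080 CPM with overexpression, against 3260, 2919 and 3050 CPM in controls, and the groups overlapped.

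**Figure D2:**
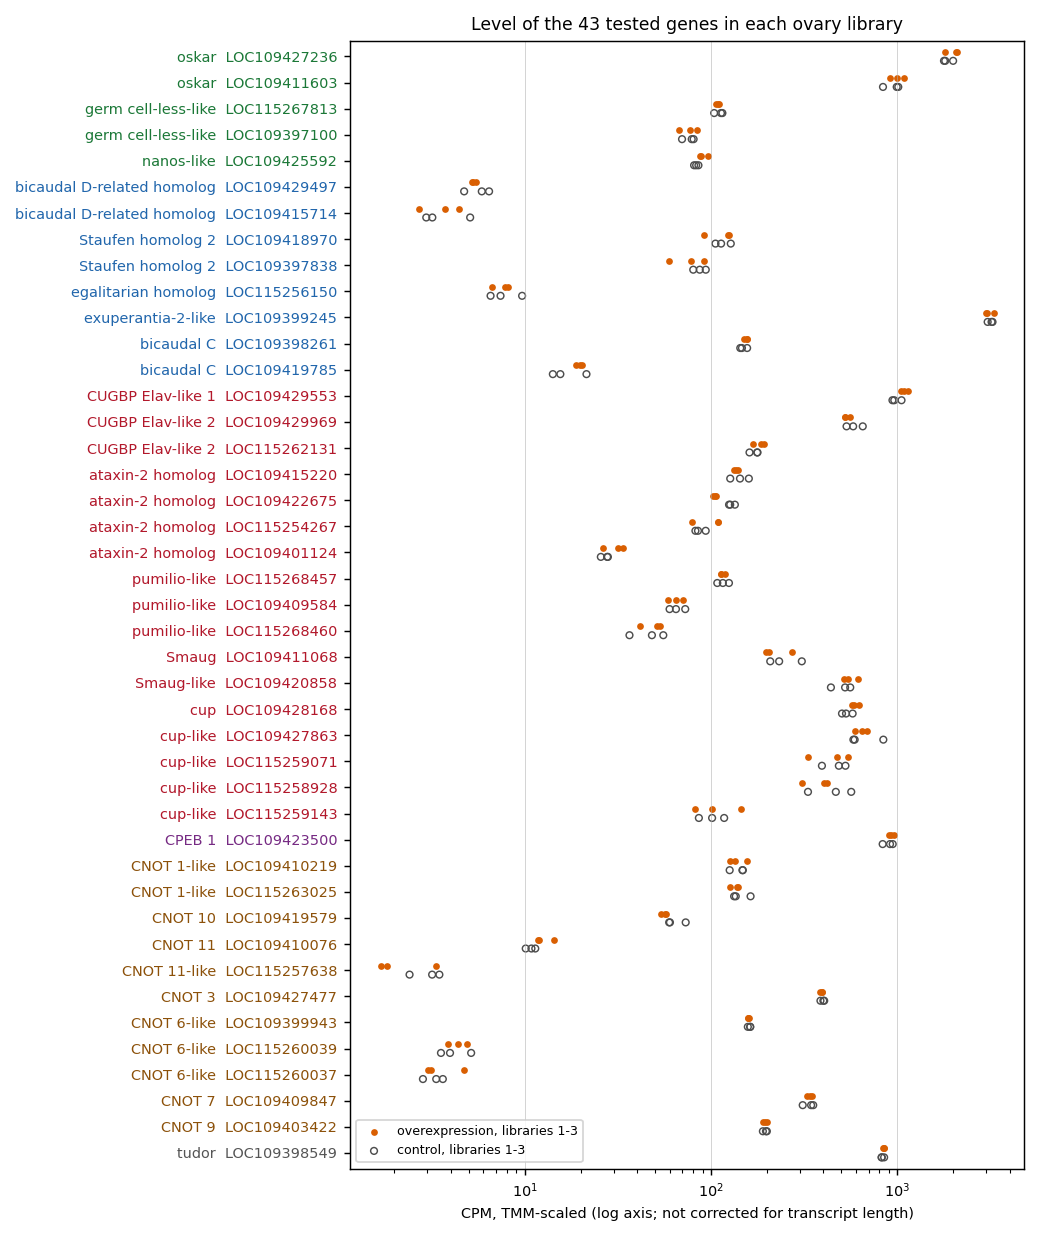
Level of each tested member in CPM (log axis, not corrected for transcript length), with filled points for the 3 overexpression libraries above open points for the 3 controls. Label colours give the role. The groups overlap in all but 4 members, LOC109425592, LOC109410076, LOC109419579 and LOC109422675.

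Among genes for mRNA transport and localisation, exuperantia, needed in the fly to place bicoid mRNA, took the most counts. LOC109399245 (NW_021838153.1, positions 93054092 to 93067299) had 3041, 2995 and 3291 CPM with overexpression, against 3052, 3203 and 3241 CPM in controls. Its log2 fold change of -0.03 ± 0.05 (SE) had an interval of -0.13 to 0.08 and an edgeR adjusted p of 0.975. Overexpression library 3 was the highest of all 6 libraries and libraries 1 and 2 of that group were the lowest.

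Staufen, the double-stranded RNA-binding protein that carries oskar mRNA in the fly, had 2 genes on different scaffolds. LOC109397838 had 91.9, 59.7 and 78.4 CPM with overexpression, against 87.0, 93.7 and 80.3 CPM in controls. LOC109418970 had 92.0, 125 and 123 CPM with overexpression, against 106, 113 and 128 CPM in controls. Overexpression library 2 was thus lowest for one gene and close to highest for the other. Summed, they gave 184, 185 and 201 CPM with overexpression, against 193, 207 and 208 CPM in controls, 93.8% of the control mean. An exact two-sided permutation test of the log2 sum gave p = 0.2, where 0.1 is the smallest that 3 libraries against 3 allow. The log2 fold changes of the separate genes were -0.18 ± 0.14 and -0.03 ± 0.12 (SE).

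Bicaudal C, an RNA-binding protein of the fly oocyte, was placed in this role by the word bicaudal alone. It also had a pair of genes, both on NW_021838687.1. LOC109398261 averaged 155 ± 3.50 CPM with overexpression and 149 ± 6.63 CPM in controls. LOC109419785 had 20.3, 18.9 and 19.7 CPM with overexpression, against 14.2, 21.4 and 15.5 CPM in controls, so its overexpression libraries sat within the range of the controls. The log2 fold changes of the pair were 0.06 ± 0.06 and 0.20 ± 0.16 (SE), with edgeR adjusted p of 0.971 and 0.963.

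The remaining transport genes were read rarely. No member was described as Bicaudal D itself. Egalitarian, which links localised mRNAs to the dynein adaptor Bicaudal D in the fly, averaged 7.55 ± 0.753 CPM with overexpression and 7.89 ± 1.61 CPM in controls (LOC115256150, log2 fold change -0.06 ± 0.19 SE, interval -0.49 to 0.37). Of the 2 genes described as bicaudal D-related, a family of motor adaptors, LOC109429497 averaged 5.32 ± 0.150 CPM with overexpression and 5.68 ± 0.871 CPM in controls. LOC109415714 averaged 3.62 ± 0.858 CPM with overexpression and 3.75 ± 1.17 CPM in controls. Its interval of -0.71 to 0.60 reaches past a 1.5-fold change in both directions. Its within-group CV (SD as a share of the mean) was 27.7%, where counting error alone would give 13.0%. A 1.5-fold change of LOC109415714 is thus not excluded.

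Translational repressors were the largest role by number, with 21 members, and held all 3 members at an unadjusted p under 0.05. That is 17.6% of the 17 tested, against 4.92% of all genes tested, but with so few members it is a description and nothing particular to the role is drawn from it. Of the 17 tested, 8 had a positive and 9 a negative log2 fold change. As a sum they gave 5372, 5284 and 5430 CPM with overexpression, against 5494, 5377 and 5175 CPM in controls, 100.3% of the control mean.

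The smallest unadjusted p belonged to a gene described as ataxin-2 homolog. Ataxin-2 is an RNA-binding protein that meets poly(A)-binding protein and acts in translation and mRNA decay in animals. LOC109422675 (NW_021838154.1, positions 23449004 to 23537489) had 103, 105 and 107 CPM with overexpression, against 125, 127 and 134 CPM in controls. The groups stood apart, and both were tight. Its log2 fold change was -0.29 ± 0.06 (SE), or 81.6% of the control, with an interval of -0.42 to -0.16. The unadjusted edgeR p was 7.2e-04, rank 12 of the 15540 genes tested, and the edgeR adjusted p was 0.935. DESeq2 gave an adjusted p of 0.0825. The difference therefore did not pass over all genes, and its interval lies inside a 1.5-fold change. Of its 8 transcript records in the deposited table, 7 carry the prefix that RefSeq gives to non-coding transcripts, and no other member has such a record.

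The other 3 genes with the ataxin-2 description lie on 3 other scaffolds, and whether they are copies of 1 gene is not given. LOC115254267 had 109.6, 79.2 and 109.6 CPM with overexpression, against 82.4, 93.6 and 85.1 CPM in controls. LOC109401124 had 33.9, 26.4 and 31.6 CPM with overexpression, against 27.9, 27.7 and 25.6 CPM in controls. In both, overexpression libraries 1 and 3 were above all controls and library 2 was not, at log2 fold changes of 0.19 ± 0.13 and 0.18 ± 0.11 (SE). LOC109415220 had 136, 133 and 139.9 CPM with overexpression, against 143, 159 and 127 CPM in controls, with a log2 fold change of -0.07 ± 0.08 (SE). Summed, the 4 genes gave 382, 344 and 388 CPM with overexpression, against 378, 408 and 372 CPM in controls (exact two-sided permutation p = 0.6).

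**Figure D3:**
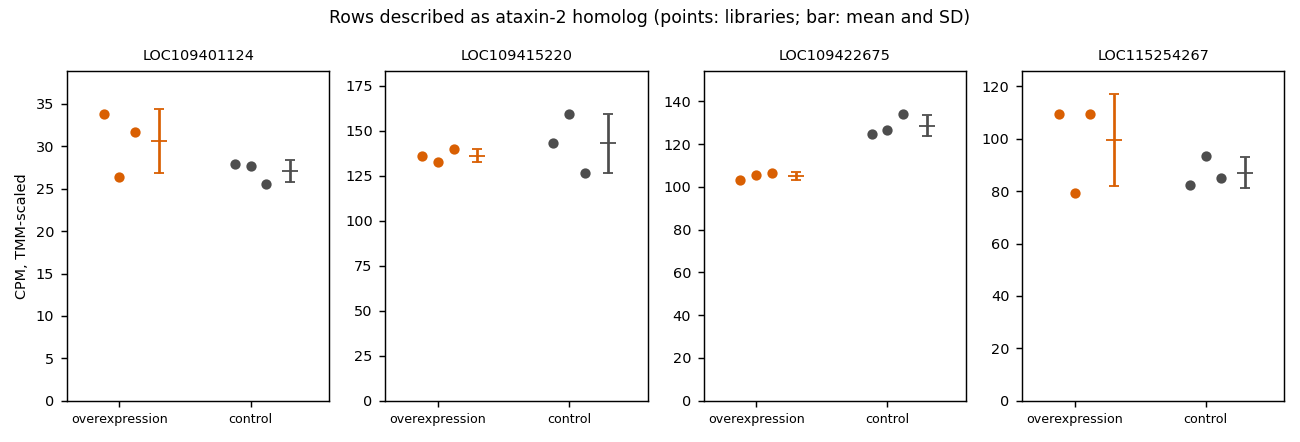
CPM of the 4 genes described as ataxin-2 homolog, with a point per library, overexpression left of control, and the mean with its SD beside the points. LOC109422675 is the only one of the 4 whose groups do not overlap, at 103 to 107 CPM with overexpression against 125 to 134 CPM in controls.

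The other 2 members at an unadjusted p under 0.05 were a CUGBP Elav-like gene and a cup gene. CUGBP Elav-like family member 1 (LOC109429553, NW_021837356.1, positions 212806 to 277817) had 1140, 1091 and 1041 CPM with overexpression, against 1053, 941 and 962 CPM in controls. Overexpression library 3 lay below control 1, so the groups overlapped. The log2 fold change of 0.15 ± 0.06 (SE) had an interval of 0.02 to 0.28, an unadjusted edgeR p of 0.030 and an edgeR adjusted p of 0.963. The unadjusted p reached 0.106 without overexpression library 1. CUGBP Elav-like family member 2 was the description of a pair of genes on NW_021837378.1. LOC109429969 averaged 536 ± 18.9 CPM with overexpression and 588 ± 59.7 CPM in controls, and LOC115262131 averaged 183 ± 12.3 CPM with overexpression and 172 ± 9.41 CPM in controls. Their log2 fold changes were -0.13 ± 0.07 and 0.09 ± 0.07 (SE), in that order.

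The 4 genes described as CUGBP Elav-like family member 4 were the 4 members too low to test. They lie on NW_021838576.1 and held at most 8.57 estimated counts in any library. LOC115270253 and LOC115270247 had 0 counts in all 3 overexpression libraries, which allows up to 0.187 to 0.193 CPM in a library when 3 counts are taken as the limit. The controls reached 2.43 counts and 1 count, so no fold is given.

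Cup, which in the fly binds eIF4E and blocks translation of oskar mRNA, had 5 genes. LOC109428168 (NW_021837141.1, positions 22228 to 26195) had 573, 622 and 587 CPM with overexpression, against 504, 575 and 530 CPM in controls. Only control 2 reached into the overexpression range. Its log2 fold change of 0.15 ± 0.06 (SE) had an interval of 0.01 to 0.28, an unadjusted edgeR p of 0.039 and an edgeR adjusted p of 0.963. The unadjusted p reached 0.137 without control library 1.

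The 4 cup-like genes spread widely among libraries of the same group. LOC115258928 had 403, 307 and 419 CPM with overexpression, against 331, 467 and 565 CPM in controls. LOC115259071 had 332, 475 and 546 CPM with overexpression, against 485, 526 and 394 CPM in controls. These genes lie on the same scaffold, NW_021837046.1. Among controls, library 3 was the highest for LOC115258928 and the lowest for LOC115259071, while overexpression library 3 was the highest of its group for both. LOC109427863 had 687, 589.5 and 644 CPM with overexpression, against 841, 589.9 and 581 CPM in controls, where control 1 stood well above the rest. LOC115259143, on that scaffold too, had 145, 101 and 82.2 CPM with overexpression, against 101, 86.0 and 118 CPM in controls. Their log2 fold changes, in that order, were -0.27 ± 0.19, -0.05 ± 0.17, -0.07 ± 0.14 and 0.10 ± 0.20 (SE).

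The sum of the 5 cup genes varied less between libraries than independent genes with the same SDs would. It was 2139, 2094 and 2278 CPM with overexpression, against 2263, 2245 and 2188 CPM in controls. The CV of the sum was 4.43% with overexpression and 1.77% in controls, where independent genes would give 6.45% and 9.15%, and that of the separate genes ran from 4.21% to 29.4%. With 3 libraries a group these CVs are descriptions, with no test. The summed overexpression level was 97.2% of the control (exact two-sided permutation p = 0.4).

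Smaug, which in the fly silences nanos mRNA and recruits deadenylation, had 2 genes on NW_021838576.1. LOC109411068 had 205, 197 and 271 CPM with overexpression, against 208, 232 and 307 CPM in controls. LOC109420858 had 541, 612 and 520 CPM with overexpression, against 524, 559 and 440 CPM in controls. In each group the library highest for LOC109411068, library 3, was the lowest for LOC109420858. LOC109411068 made up 27.5%, 24.3% and 34.2% of the pair with overexpression, against 28.4%, 29.3% and 41.1% in controls. The sum was 746, 809 and 791 CPM with overexpression, against 732, 791 and 747 CPM in controls. The CV of the sum was 4.13% with overexpression and 4.03% in controls, where independence would give 8.06% with overexpression and 10.6% in controls, and the separate genes had 8.65% to 20.8%. The Smaug genes' log2 fold changes of -0.15 ± 0.16 and 0.14 ± 0.09 (SE) had opposite signs and edgeR adjusted p of 0.971 and 0.963. The sum of the oskar genes was not steadier than independence would give. Its CV was 6.35% with overexpression and 6.07% in controls, against 6.08% and 5.34% under independence. Nor were the sums of the pumilio, ataxin-2, germ cell-less, bicaudal D-related and CUGBP Elav-like family member 2 genes, in either group. Besides cup and Smaug, the sums of the Staufen, bicaudal C and CCR4-NOT subunit 11 genes were steadier in both groups. CCR4-NOT subunits 1 and 6 were steadier in 1 group only.

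Pumilio, the repressor that binds the Nanos target mRNAs, had 3 genes within 1.96 Mb of NW_021837045.1. LOC115268457 averaged 115 ± 3.25 CPM with overexpression and 116 ± 8.39 CPM in controls. LOC109409584 averaged 64.9 ± 5.92 CPM with overexpression and 65.8 ± 6.45 CPM in controls. LOC115268460 averaged 48.8 ± 6.44 CPM with overexpression and 46.7 ± 9.55 CPM in controls. Log2 fold changes were between -0.02 and 0.06, and the summed level was 229 ± 13.6 CPM with overexpression and 229 ± 14.4 CPM in controls.

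**Figure D4:**
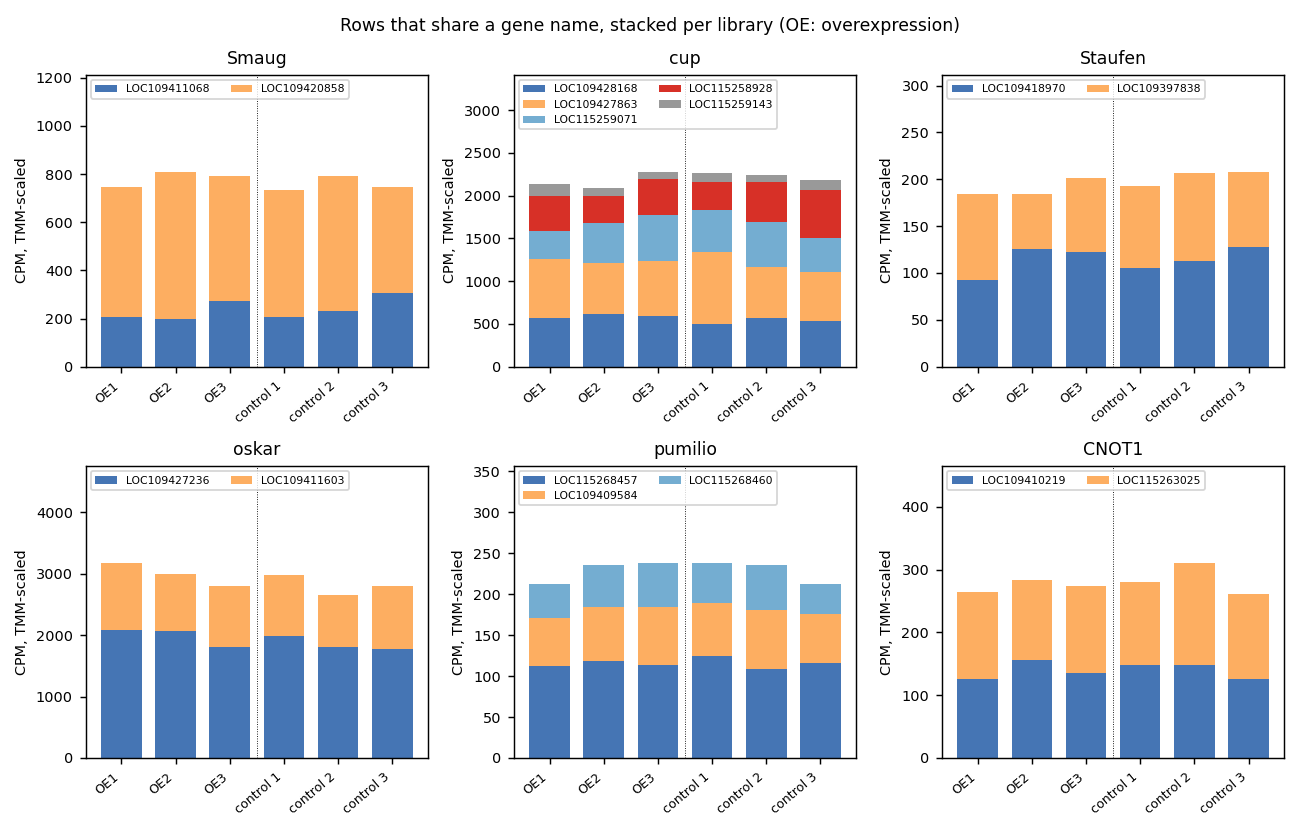
CPM of genes that share a name, stacked per library with overexpression libraries left of controls. In the Smaug, cup and Staufen panels the parts differ between libraries more than the full bars, which stay within 732 to 809, 2094 to 2278 and 184 to 208 CPM.

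Cytoplasmic polyadenylation was represented by 1 gene, CPEB 1, the family to which fly Orb belongs. LOC109423500 (NW_021837711.1, positions 9742062 to 9849054) had whole-number estimates and stood at 903, 923 and 965 CPM with overexpression, against 913, 944 and 834 CPM in controls. Its log2 fold change of 0.05 ± 0.06 (SE) had an interval of -0.07 to 0.18 and an edgeR adjusted p of 0.971.

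Opposite in action, the CCR4-NOT deadenylase complex had 11 genes. The subunit with the most counts, subunit 3 (LOC109427477), averaged 391 ± 5.34 CPM with overexpression and 397 ± 9.60 CPM in controls. Its log2 fold change of -0.02 ± 0.04 (SE) had an interval of -0.12 to 0.08. Subunit 7, a catalytic subunit (LOC109409847), averaged 338 ± 9.90 CPM with overexpression and 336 ± 22.7 CPM in controls. Subunit 9 (LOC109403422) averaged 195 ± 4.99 CPM with overexpression and 195 ± 5.01 CPM in controls. The scaffold subunit 1 was the description of LOC115263025 and LOC109410219. In that order they averaged 134 ± 6.73 and 139 ± 15.8 CPM with overexpression, against 144 ± 16.6 and 140 ± 12.6 CPM in controls. Subunit 6, the other catalytic type, was read almost wholly from LOC109399943, at 159 ± 1.52 CPM with overexpression and 161 ± 2.71 CPM in controls. Its 2 further genes averaged 4.36 ± 0.508 and 3.63 ± 0.954 CPM with overexpression, against 4.23 ± 0.833 and 3.28 ± 0.402 CPM in controls.

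The largest positive and negative log2 fold changes among members were both in subunit 11. LOC109410076 (NW_021838909.1, positions 3860651 to 3861649) had 11.7, 14.4 and 12 CPM with overexpression, against 11.4, 10.1 and 10.9 CPM in controls, which gave a log2 fold change of 0.24 ± 0.14 (SE). LOC115257638 (NW_021838909.1, positions 2470320 to 2471262) had 3.34, 1.83 and 1.69 CPM with overexpression, against 2.41, 3.48 and 3.18 CPM in controls. Its log2 fold change of -0.41 ± 0.32 (SE) had the widest interval, -1.14 to 0.33. The within-group CV of LOC115257638 was 31.3%, where counting error alone would give 15.3%. Both subunit 11 genes had an edgeR adjusted p of 0.963. Summed, they gave 15.1, 16.2 and 13.7 CPM with overexpression, against 13.8, 13.6 and 14.1 CPM in controls, so the groups overlapped.

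Subunit 10 (LOC109419579, NW_021839020.1, positions 9982451 to 9984710), named after its values were seen, was the remaining member whose groups stood apart. It had 56.6, 57.4 and 53.6 CPM with overexpression, against 73.1, 60.2 and 59.6 CPM in controls, where control 1 was well above the others. The log2 fold change of -0.20 ± 0.09 (SE) had an unadjusted edgeR p of 0.059 and an edgeR adjusted p of 0.963. The complex as a whole summed to 1436 ± 13.7 CPM with overexpression and 1460 ± 47.3 CPM in controls.

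The last member, tudor, builds the scaffold of germ granules in the fly. It was caught by the word maternal and is not in the germ plasm sum. LOC109398549 had 841, 846 and 852 CPM with overexpression, against 825, 849 and 822 CPM in controls, which gave a log2 fold change of 0.02 ± 0.04 (SE). It was the steadiest of the 43 tested members, with a within-group CV (root mean square over the groups) of 1.32%.

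Members with whole-number estimates varied less between libraries of a group than members whose estimates had decimals. Whether reads of the latter were divided among genes was not measured. The 8 tested members with whole-number estimates in every library had a median within-group CV of 4.22%, and the 35 others had 10.2%. Over all genes tested the medians were 7.68% for the 4324 genes with whole numbers and 12.6% for the 11216 others. Members with whole numbers also had more counts (median 366 against 116 CPM), and the part of depth in this difference was not tested. Counting error alone would give medians of 1.31% and 2.32% in these sets of members.

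Shared names were common, with 32 of the 47 members sharing their exact description with another member. The RefSeq gene table of the later AalbF5 assembly lists 24 of the 47 gene IDs (51.1%), close to the 54.2% of all genes with values. It lists 1 of the 2 oskar, Staufen, bicaudal C, germ cell-less and Smaug genes, 1 of the 3 pumilio genes and 1 of the 5 cup genes, but both subunit 1 genes of CCR4-NOT and 2 of the 4 ataxin-2 genes. LOC109422675 is not among those listed. That table gives no descriptions, so whether another ID took the place of a missing one was not tested.

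A wider list of genes for the same and neighbouring processes held 85 genes. Among them were vasa, me31B, squid, Y-box factor, poly(A)-binding protein, PAN2 and PAN3, brain tumor, tudor domain and FMR1 genes. It also held genes that are not mRNA regulators, such as dorsal, cactus, moesin, a torso-like protein and genes described as tyrosine-protein kinase receptor torso-like. Of its 77 tested genes none passed the edgeR limit in either direction, with 0 called by DESeq2, 5 at an unadjusted p under 0.05 (6.49%, against 4.92% of all genes tested) and a median log2 fold change of -0.008. Of these 5, 1 was higher with overexpression and 4 were lower, where all genes tested gave 2.42% higher and 2.5% lower. In 10 of the 77 (13.0%) the groups did not overlap, against 10.4% of all genes tested. A poly(A)-binding protein gene, LOC109398818, had 13.4, 10.3 and 9.90 CPM with overexpression, against 8.91, 6.52 and 8.29 CPM in controls, which gave a log2 fold change of 0.50 ± 0.18 (SE). Another with the same description, LOC109417355, had 18.0, 21.4 and 14.6 CPM with overexpression, against 23.7, 21.6 and 25.3 CPM in controls, which gave a log2 fold change of -0.39 ± 0.15 (SE). The largest change among the 5 was in polyadenylate-binding protein 1 (LOC109407548), with 2.30, 4.14 and 2.63 CPM with overexpression against 4.85, 4.09 and 4.78 CPM in controls and a log2 fold change of -0.60 ± 0.26 (SE). Its groups overlapped at overexpression library 2. These 3 genes each had an edgeR adjusted p of 0.963. The poly(A)-binding protein gene with the most counts, LOC109425762, averaged 1494 ± 8.70 CPM with overexpression and 1483 ± 40.8 CPM in controls. Its log2 fold change was 0.01 ± 0.04 (SE). The rest of the 5 were an enhancer of mRNA-decapping protein 4 gene (LOC115254022) and a cactus-like gene (LOC115254172). Their log2 fold changes were -0.13 ± 0.05 and -0.20 ± 0.08 (SE), with groups apart. These wider-list genes were all named after their values were seen.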

How the data were processed

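Ovary RNA was sequenced in 3 overexpression and 3 control libraries, grouped by sample title. Estimated counts with decimals, unscaled, were deposited by the authors as a single gene table. HISAT and Bowtie2 are listed in the submitters' processing notes without roles or versions. The counting program, genome build and strand setting were not given in the sources used here. Where a read fits several genes its count can be divided among them, so counts of genes with near-identical copies are uncertain (38 of the 47 members lack whole numbers in all libraries, within 0.001). Of 34479 rows, 10950 were blank in all libraries and left out, and 0 columns were without a sample.

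Rounded estimates were tested with edgeR 4.0.16 in R 4.3.3 (filterByExpr defaults, TMM, quasi-likelihood F test, Benjamini-Hochberg over all 15540 genes, limit 0.05). SEs are the log2 fold change over the square root of F, and 95% intervals use the fit's degrees of freedom. DESeq2 1.42.0 and limma 3.58.1 served as alternatives. Floors for counts of 0 take 3 counts per library and cover counting error only. Same-numbered libraries did not deviate together over all genes tested (correlations -0.012, 0.027 and 0.006), so no block was used in the main fit. Procedures were tested on simulated data.

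Named genes are members at an unadjusted p under 0.05, those with the classical names, the highest-count member of each role and the extreme changes. The remaining members and the single genes of the wider list were named after their values were seen. Levels per coding length were not computed, since no transcript lengths were used here. Members and lists were chosen with earlier results of these data known.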

Additional observations from a re-analysis of the deposited data

How the results depend on the processing

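No alternative called a member or a gene of the wider list at the limit of 0.05. With counts summed over 1 description, 2 of the 26 tested member descriptions had an unadjusted p under 0.05. In the other alternatives the count of members at an unadjusted p under 0.05 was 3 or 4, but not of the same genes. LOC109422675 stayed under it in all 13 alternatives that tested it, and LOC109428168 and LOC109429553 in 10 of 14 each (largest p 0.137, without control library 1, and 0.106, without overexpression library 1), while 10 other members passed it in 1 or 2 alternatives. The median log2 fold change of the members was -0.017 to 0.024. For LOC109422675 the log2 fold change was -0.31 to -0.26 and the adjusted p 0.0825 to 0.998, over 13 alternatives. The count of all genes called was 15 with the DESeq2 Wald test, 1 with the stricter filter, 1 with counts summed over 1 description, 0 with the replicate block, and 0 to 2 when 1 library was left out, with 707 to 833 genes at an unadjusted p under 0.05 in those fits. With the replicate block 0 members were called and 4 had an unadjusted p under 0.05. The count of wider-list genes at an unadjusted p under 0.05 was 3 with the replicate block, 1 with summed descriptions and 3 to 6 with 1 library left out. The cause was not tested. By the check in the processing summary, same-numbered libraries did not deviate together over all genes tested. That check cannot exclude a shared deviation in single genes. The 4 members that were too low to test had too few counts for the main fit, and the part of depth in this was not tested.

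The sign of 22 of the 46 named genes turned when 1 library was left out, and in none of the other alternatives. Their log2 fold changes in those fits ran from -0.108 to 0.053 for LOC109410219, -0.068 to 0.214 for LOC115260039, -0.081 to 0.076 for LOC109397100, -0.064 to 0.041 for LOC115268457, -0.161 to 0.131 for LOC109427863, -0.150 to 0.002 for LOC115263025, -0.024 to 0.011 for LOC109403422, -0.005 to 0.133 for LOC109411603, -0.070 to 0.004 for LOC115267813, -0.228 to 0.233 for LOC109415714, -0.214 to 0.008 for LOC109429497, -0.177 to 0.115 for LOC115256150, -0.152 to 0.016 for LOC109415220, -0.086 to 0.058 for LOC109409584, -0.215 to 0.124 for LOC115259071, -0.153 to 0.273 for LOC115259143, -0.047 to 0.047 for LOC109409847, -0.106 to 0.102 for LOC109418970, -0.086 to 0.207 for LOC115268460, -0.309 to 0.026 for LOC109411068, -0.068 to 0.000 for LOC109399245 and -0.099 to 0.260 for LOC115260037.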
